A study of Mus musculus with 2 samples.

Results

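The serine/arginine-rich (SR) splicing factors, the heterogeneous nuclear ribonucleoproteins (hnRNPs) and the numbered RBM RNA-binding proteins were examined in total RNA-seq of mouse gastrocnemius, the large calf muscle. Genes were taken by symbol: Srsf with a number, Hnrnp, or Rbm with a number, provided that at least 1 transcript is annotated as protein_coding. Of 77 genes with such a symbol, 70 had a protein-coding transcript, and Rbm20 and Rbm24, which belong with the muscle-specific splicing regulators, were left out. The remaining 68 genes comprised 11 Srsf, 20 Hnrnp and 37 Rbm genes, out of 22015 protein-coding genes outside the mitochondrial genome and 55536 annotated genes in all. The 68 genes lay on 21 chromosomes and had 535 annotated transcripts, of which 263 were typed protein_coding, 145 retained_intron, 63 nonsense_mediated_decay, 63 processed_transcript and 1 non_stop_decay.

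The series holds 1 group of 2 male B6Cast F1 mice (strain B6CASTF1/J, the first-generation cross of C57BL/6J and CAST/EiJ) at 25 days of age. There was no treatment and no comparison group. One library per animal, made from 300 ng of total RNA, held 35098487 expected counts in animal 1 and 37428588 in animal 2. The labels number the tissue samples as different males but give both the same donor entry, so any spread between the libraries may be partly technical. Markers of skeletal muscle fibres (6 of 6 detected) summed to 81611 and 82694 TPM (a level corrected for transcript length), and 3 epithelial, 3 germ cell and 3 neuronal markers summed to at most 0.23 TPM per list. Among the other cell types, 4 fibroblast markers summed to 1006 and 602 TPM and 4 Schwann cell markers to 34.9 and 73.8 TPM. The part of these cells in the levels below was not tested, and in whole tissue fewer cells of a type cannot be told apart from less RNA per cell.

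SR proteins carry RNA recognition motifs and a tail rich in arginine-serine dipeptides. They bind exonic enhancers and recruit the splicing machinery. hnRNPs coat nascent transcripts and many of them oppose exon inclusion, while RBM proteins are a heterogeneous set that includes spliceosome components, decay factors and cold-inducible proteins. Many genes of these families are known to limit their own expression: the protein promotes inclusion of an exon with a premature stop codon in its own transcript, or retention of an intron, and the resulting RNA is degraded by nonsense-mediated decay or kept in the nucleus. Such exons are often called poison exons, and those of the SR genes are among the most conserved non-coding stretches of mammalian genomes.

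The annotated decay transcripts show where these stop codons lie. Of the 63 decay transcripts, 26 had their stop codon in an exon that the coding transcript with the longest reading frame lacks, 9 in an exon that overlaps one of its exons, and 28 in an exon that they share with it. Leaving out first exons and counting repeats once, the absent stop-holding exons came to 19 in 13 genes, between 51 and 460 bases long, and 11 of these had a length not divisible by 3. At a mean level of 0.3 TPM or more, summed over the transcripts that hold the exon, 13 remained. Below are the coding parts of 6 such exons in Srsf genes, from the first base of the exon through the stop codon, read from the GENCODE M21 transcripts and written 5′ to 3′ with the stop codon in capitals. They are shown because the reading frame of the decay transcript closes within these letters, and they were chosen after their levels were seen. On mm10 the stretches are chr17:29039454-29039487, plus strand; chr4:131884276-131884390, plus strand; chr2:162932815-162932966, plus strand; chr17:80205054-80205081, minus strand; chr5:115328347-115328428, plus strand; and chr3:158024209-158024231, minus strand.
Srsf3-201: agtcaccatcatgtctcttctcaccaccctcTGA
Srsf4-203: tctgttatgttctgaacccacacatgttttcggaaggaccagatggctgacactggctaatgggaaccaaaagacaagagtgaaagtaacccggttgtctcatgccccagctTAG
Srsf6-201: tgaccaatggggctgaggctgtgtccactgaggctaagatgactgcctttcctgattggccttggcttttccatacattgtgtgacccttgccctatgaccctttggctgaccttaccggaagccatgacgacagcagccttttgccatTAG
Srsf7-203: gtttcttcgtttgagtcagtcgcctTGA
Srsf9-205: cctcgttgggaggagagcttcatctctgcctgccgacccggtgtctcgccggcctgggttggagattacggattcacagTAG
Srsf11-210: ttcttttccctggttcagccTGA

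In each of the 6 the reading frame closed within 152 bases of the exon's start, and 196 to 700 bases of spliced RNA lay between the stop codon and the last exon junction. The Srsf3 exon was 456 bases long within an intron of 2150 bases, and the Srsf6 exon 268 bases within 1283. The Srsf7 exon was 460 bases long within 874. The same is shown for the absent exons of Rbm39, Hnrnpl, its paralog Hnrnpll, and Rbm7, the most abundant such exons outside the Srsf genes apart from another exon of Rbm39. They lie at chr2:156178881-156178952, minus strand; chr7:28817335-28817393, plus strand; chr17:80044976-80045022, minus strand; and chr9:48494364-48494387, minus strand.
Rbm39-225: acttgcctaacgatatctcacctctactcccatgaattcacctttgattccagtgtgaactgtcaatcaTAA
Hnrnpl-213: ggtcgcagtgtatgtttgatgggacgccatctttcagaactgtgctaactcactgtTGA
Hnrnpll-203: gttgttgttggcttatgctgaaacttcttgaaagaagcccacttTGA
Rbm7-204: tatttgaggcagagagccataTAG

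The use of these exons differed widely between genes. In Srsf9, an SR protein with a short tail, transcripts with the exon held 51.7% of the gene in animal 1 and 56.5% in animal 2, at a gene level of 3.50 and 4.19 TPM, and the decay transcript alone held 28.4% and 22.1%. In Srsf6, a regulator of tau and other alternative exons, the exon stood in 35.4% and 40.4% of the gene. In Srsf3, the smallest SR protein, it stood in 15.6% and 17.99%. Rbm39, a cofactor of U2 snRNP auxiliary factor, had the 73-base exon in 20.99% and 20.3%, spread over 5 transcripts. The Hnrnpll exon stood in 19.0% and 21.1% of its gene, and that of Hnrnpl, a CA-repeat binding repressor, in 7.12% and 4.71%. The Srsf4 stop codon lay in Srsf4-203 (1.39% and 5.23%) and in Srsf4-204 (15.8% and 11.2%), and together they held 17.2% and 16.4%. The first exon of Srsf4-204 begins inside exon 2 of Srsf4-203. The exons of Srsf7 and Srsf11 were at lower means of 3.89% ± 0.827 and 2.66% ± 2.31 (SD, n = 2). The second deposited quantification gave 27.2% for the Srsf3 exon, 41.5% for Srsf6, 50.7% for Srsf9, 23.7% for Rbm39 and 33.9% for Hnrnpll (means of 2 animals). Rbm7, a subunit of the nuclear exosome targeting complex, stood apart: its exon held 28.1% and 30.1% of the gene in the first quantification and 74.7% and 88.2% in the second, so its share is uncertain.

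At gene level, 58 of the 68 genes (85.3%) were detected, meaning TPM of 1 or more in both animals, against 45.1% of all protein-coding genes. By family these were 10 of 11 Srsf, 20 of 20 Hnrnp and 28 of 37 Rbm genes. Family medians over all members were 27.1 ± 1.11 TPM for Hnrnp, 16.3 ± 0.262 for Srsf and 4.45 ± 0.219 for Rbm (SD, n = 2). The median of all detected protein-coding genes was 6.82 TPM, and 40 of the 58 detected genes lay above it. Together the 68 genes made up 1159 and 1180 TPM, which is 0.298% and 0.291% of the TPM of nuclear protein-coding genes. These figures refer to the first quantification, whose TPM is a share of all RNA in the tables. Protein-coding genes held 38.9% and 40.6% of that total, so every level is lower than on a messenger RNA scale.

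**Figure D1:**
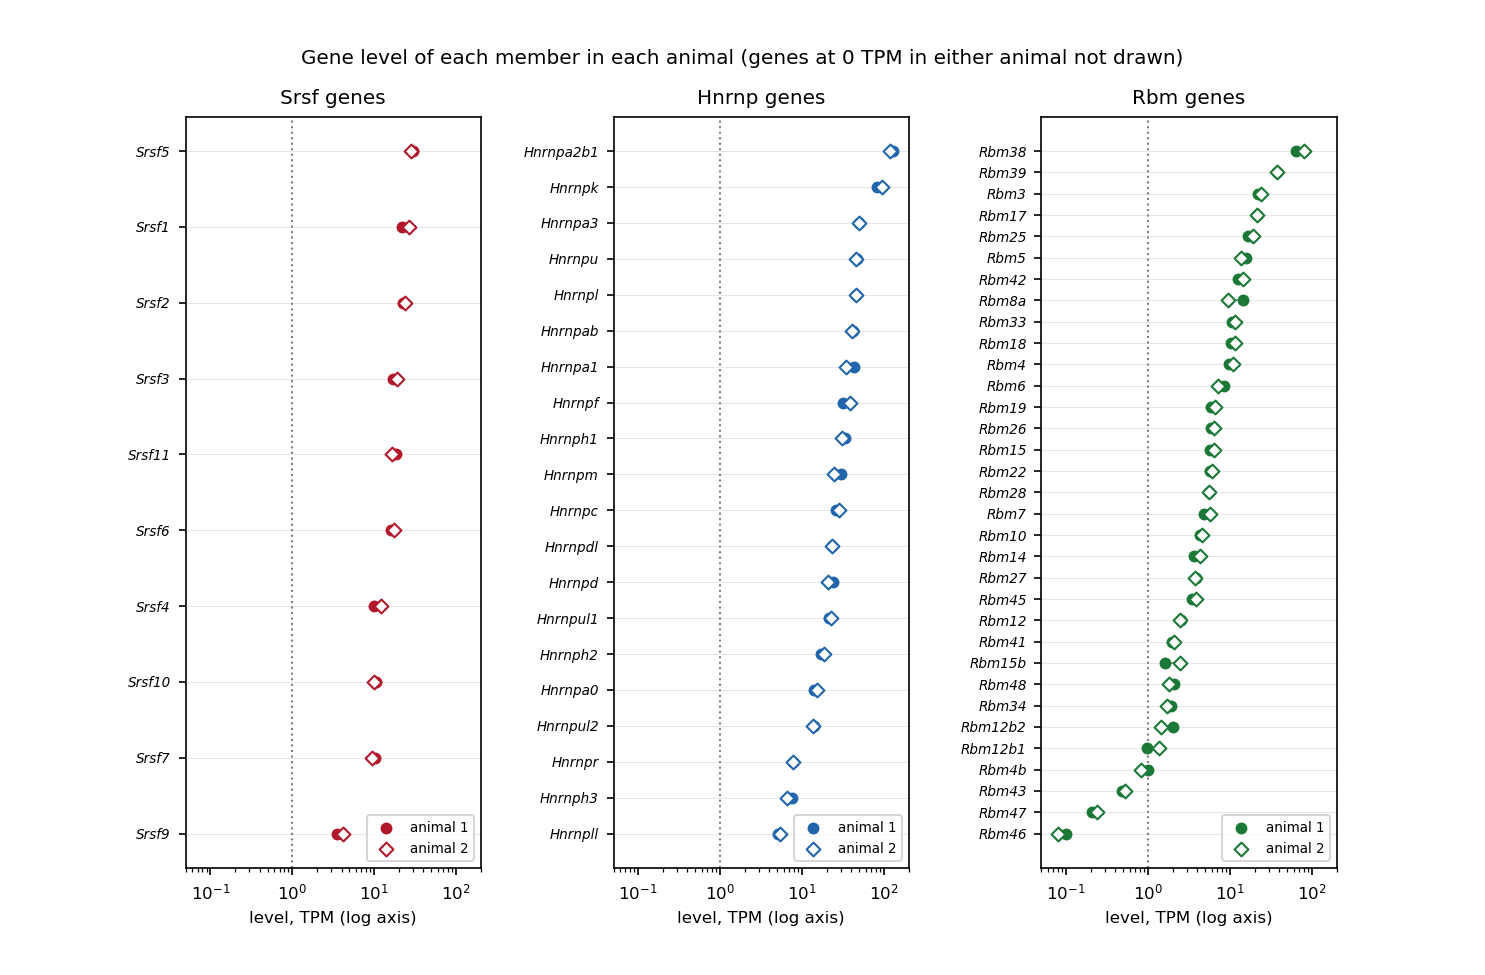
Level of each gene in each animal, in TPM on a log axis, in 3 panels by family; filled circles are animal 1, open diamonds animal 2, and the dotted line is the detection threshold of 1 TPM. The Hnrnp genes all lie above 5 TPM, the Srsf genes above 3 TPM apart from Srsf12, which is at 0 and not drawn, and the drawn Rbm genes run from 0.08 to 80.02 TPM; Rbm8a2, Rbm11, Rbm31y and Rbm44, at 0 in at least 1 animal, are not drawn.

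The hnRNPs held the highest levels. Hnrnpa2b1, which packages pre-mRNA and reads RNA signals for transport, stood at 127 TPM in animal 1 and 118 in animal 2. Its paralogs of the A/B group followed at 49.7 and 49.0 TPM (Hnrnpa3) and at 42.8 and 34.8 TPM (Hnrnpa1). Hnrnpa1 has many near-identical processed pseudogenes, so its level is uncertain. Hnrnpa0, the intronless A/B member that binds AU-rich elements, stood at 13.98 and 15.1 TPM. Hnrnpk, a poly(C)-binding KH-domain protein, ranked second with 82.7 and 94.0 TPM. These values placed Hnrnpa2b1 and Hnrnpk above every other gene of the set in both animals.

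In the H/F group, which binds G-rich tracts, Hnrnpf (31.6 and 38.1 TPM) and Hnrnph1 (33.3 and 31.1 TPM) overlapped. Hnrnph2 was lower at 16.8 and 18.6 TPM and Hnrnph3 lowest at 7.64 and 6.6. Hnrnpl stood at 45.6 and 46.2 TPM, against 5.13 and 5.35 TPM for Hnrnpll, the lowest of the 20 Hnrnp genes and best known from lymphocytes. In the D group of AU-rich element binders, Hnrnpab had 41.7 and 40.9 TPM, Hnrnpd 23.9 and 20.6, and Hnrnpdl 23.0 and 23.2. Hnrnpu, a chromatin-associated scaffold protein, reached 47.3 and 45.4 TPM, above Hnrnpul1 (21.2 and 22.4) and Hnrnpul2 (13.9 and 13.6). Hnrnpm and Hnrnpc, which bind GU-rich and U-rich tracts, stood at 30.1 and 24.5 TPM and at 25.8 and 28.2 TPM. Within each group the order was the same in both animals, except for Hnrnpf against Hnrnph1, for Hnrnpd against Hnrnpdl, and for Hnrnpm against Hnrnpc.

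Among the SR genes, Srsf5 (30.1 and 28.3 TPM) was highest, ahead of Srsf1 (21.8 and 26.9), the prototype SR protein, and Srsf2 (22.8 and 24.1), which stays in nuclear speckles. Srsf3, Srsf11 and Srsf6 formed a middle set at 16.8 and 18.8, 18.3 and 16.4, and 16.1 and 17.7 TPM, and their ranges overlapped. Srsf4, Srsf10 and Srsf7 lay near 10 TPM, at 10.02 and 11.96, 10.6 and 9.87, and 10.2 and 9.33. Srsf5 was thus above its close relatives Srsf6 and Srsf4, Srsf3 above Srsf7, and Srsf1 above Srsf9, in both animals. Srsf12, which is known mainly from brain and testis, had 0 counts in both libraries in the first quantification, which allows up to 3 counts in each. The second quantification assigned it some reads, fewer than the summed count of 20 needed for the test between animals.

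The RBM genes spread most. Rbm38, a p53 target that binds 3′ ends of messenger RNAs and takes part in muscle differentiation, was highest with 64.4 and 80.02 TPM, rank 3 of the 68 genes. Rbm39 followed with 37.5 and 37.8 TPM, the cold-inducible Rbm3 with 22.2 and 23.8, and Rbm17, the spliceosome component SPF45, with 21.2 and 21.6. Rbm25 (16.4 and 19.1 TPM), Rbm5 (15.8 and 13.8), Rbm42 (12.6 and 14.6) and Rbm8a (14.3 and 9.43), the exon junction complex subunit Y14, completed the highest 8. Paralogs were often far apart. Rbm5 exceeded Rbm6 (8.51 and 7.14 TPM) and Rbm10 (4.29 and 4.6), Rbm4 (9.82 and 10.9) exceeded Rbm4b (1.00 and 0.82), and Rbm15 (5.72 and 6.47), which guides the m6A methyltransferase, exceeded Rbm15b (1.60 and 2.45). Rbm26 (5.87 and 6.48) likewise exceeded Rbm27 (3.81 and 3.70). Of genes related by number only, Rbm33 stood at 10.7 and 11.5 TPM and Rbm34 at 1.93 and 1.70. Rbm14 (3.63 and 4.34 TPM) and Rbm45 (3.49 and 3.86) overlapped. Rbm12 (2.55 and 2.47), Rbm12b2 (2.03 and 1.45) and Rbm12b1 (0.96 and 1.35) were all low, and reads may be split between the last pair, which are close paralogs and neighbours on chromosome 4.

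Besides Srsf12, 9 Rbm genes failed the detection threshold. Rbm12b1 and Rbm4b missed it in 1 animal each. Rbm43 stood at 0.48 and 0.53 TPM and Rbm47, an epithelial cofactor of RNA editing, at 0.21 and 0.24. The germ cell gene Rbm46 had 5 and 4 counts and Rbm44 had 1 and 0. Rbm8a2, Rbm11 and the Y-linked Rbm31y had 0 counts in both libraries in the first quantification. The second assigned some reads to Rbm11 and Rbm8a2, fewer than the summed count of 20 needed for the test between animals. The epithelial markers were at or near 0 as well, with Epcam and Krt5 at 0 TPM in both animals.

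The isoform tables give IsoPct, the percent of a gene's TPM assigned to each transcript. The non-coding share of a gene is here the sum of IsoPct over its transcripts not typed protein_coding. At mean TPM of 5 or more there were 47 of the 68 genes; 42 of these had both kinds of transcript annotated, and Hnrnpab, Hnrnpf, Hnrnph2, Hnrnpa0 and Rbm26 had coding ones only. Over the 42, the median share was 36.1%, against 10.2% over all 4997 protein-coding genes chosen in the same way, and 35 of the 42 lay above that median. The family medians were 44.0% for 9 Srsf, 34.9% for 16 Hnrnp and 34.5% for 17 Rbm genes. The share was 50% or more in both animals in 9 of 42 genes (21.4%), against 7.8% of all such genes. The most abundant transcript was non-coding in both animals in 6 of the 42, against 6.58% in the background.

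**Figure D2:**
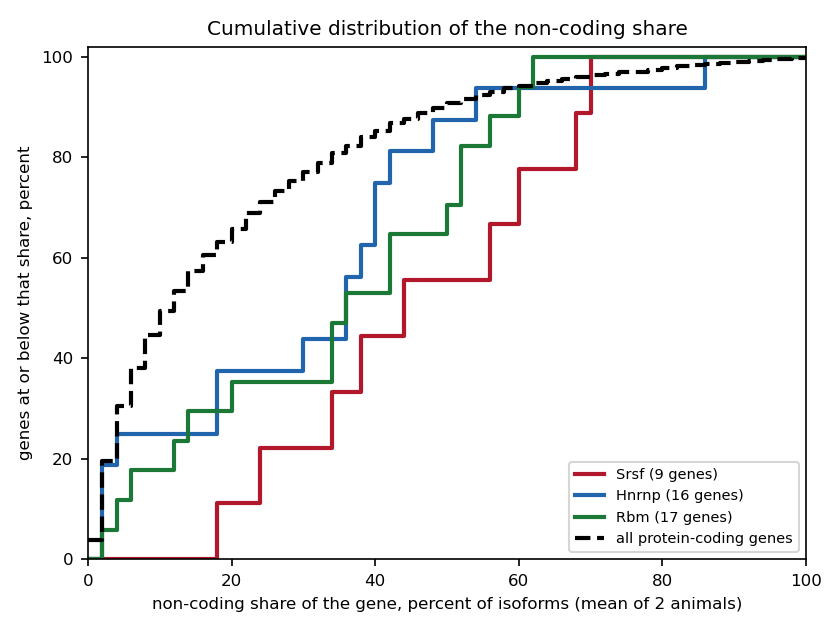
Cumulative distribution of the non-coding share (x axis, percent of isoforms, mean of 2 animals) over genes at mean TPM of 5 or more; the y axis is the percent of genes at or below each share, in steps of 2 points. Up to a share of 52% the 3 family lines lie below the dashed line of all 4997 protein-coding genes, and the lowest Srsf gene, Srsf7, is at 17.8%. At higher shares the lines cross. The Rbm line reaches 100% at 62% and the Srsf line at 70%, where the dashed line is at 94.8% and 96.4%.

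These shares depend on scale and annotation, and both were measured. IsoPct counts molecules, so short fragments weigh as much as full transcripts. As a share of expected counts the medians were 23.3% for the 42 genes and 4.14% for all, and 4 of the 42 genes reached 50%, against 3.98% of all. The 42 genes had a median of 4 annotated non-coding transcripts each, against 3 for all. In a comparison chosen after seeing the data, among the 2250 genes with at least 4, the median share was 20.8% and 11.2% reached 50%; among the 27 genes of these families with at least 4, the median was 39.6% and 6 (22.2%) reached 50%. The second quantification gave medians of 35.2% and 13.1%. In it 9 of 42 genes were at 50% or more, against 10.2% of all, and 6 of the 9 were shared with the first. Hnrnpu, Srsf3, Srsf5 and Srsf11 reached 50% in both animals by all 3 measures. Across the 42 genes the shares of the animals correlated at Pearson r = 0.94 and those of the quantifications at r = 0.85, over values that share reads and annotation. The median difference was 2.64 percentage points between animals and 4.18 between quantifications.

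**Figure D3:**
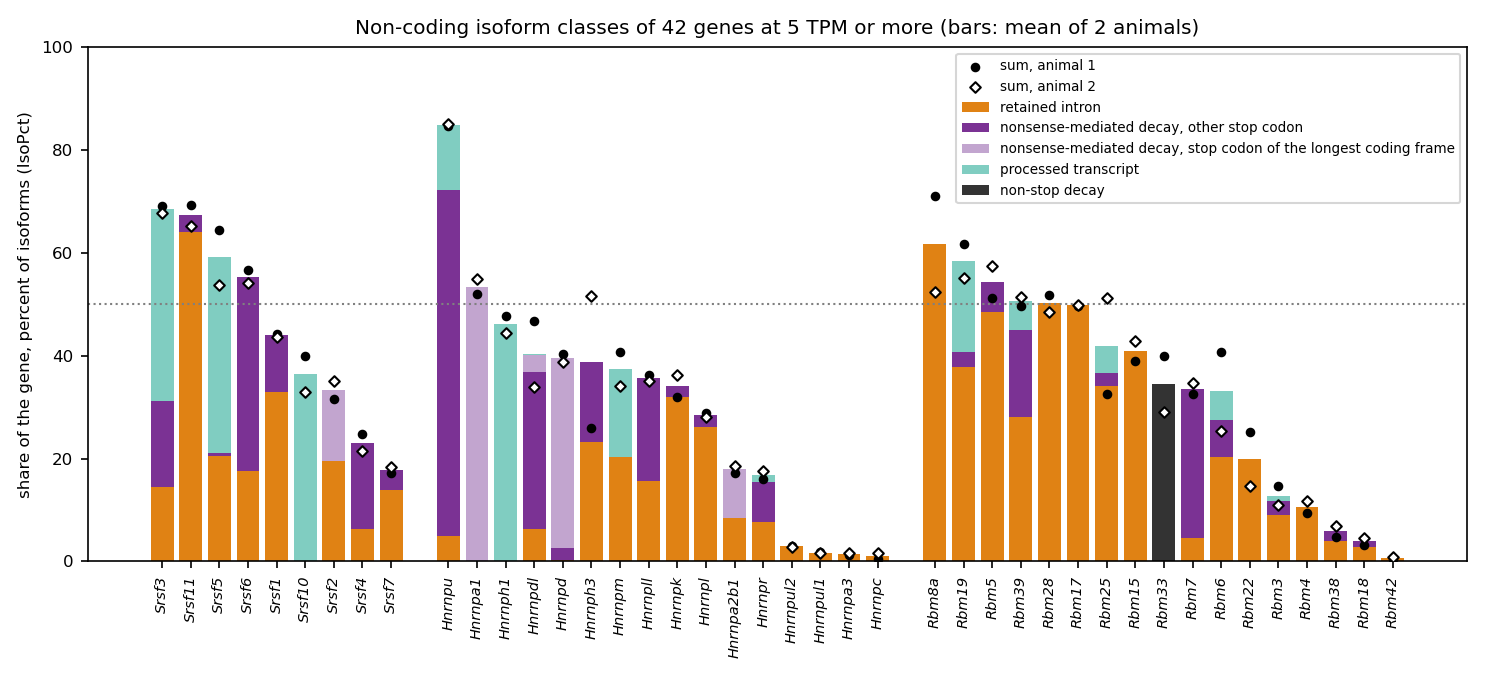
Non-coding isoform classes of the 42 genes, ordered by share within each family; stacked bars give the mean percent of the gene (IsoPct) in each class and points the sum in each animal. Retained introns fill most of the bars of Srsf11, Rbm8a and Rbm5, decay transcripts those of Hnrnpu, Srsf6 and Hnrnpa1, and processed transcripts those of Srsf10 and Hnrnph1; the dotted line marks 50%.

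The kind of non-coding isoform differed between families. Retained introns were the largest class in 27 of the 42 genes, decay transcripts in 10 and processed transcripts, which have no annotated reading frame, in 4. The remaining gene, Rbm33, had only a non_stop_decay transcript of this kind, at 40.0% and 29.0%. In mean shares, retained introns took 24.9% of an Rbm gene, 21% of an Srsf gene and 9.5% of an Hnrnp gene. Decay transcripts took 4.14%, 11.6% and 15.7%, but by medians Srsf genes (11.02%) stood above Hnrnp genes (5.06%), whose mean was carried by Hnrnpu (67.3%), Hnrnpa1 (53.4%) and Hnrnpd (39.2%). In the same order of families, Rbm, Srsf and Hnrnp, mean shares of processed transcripts were 2.05%, 12.4% and 4.84%. Over all 4997 genes the means were 8.29%, 3.82% and 6.32% for the 3 classes. When only protein_coding transcripts were summed, the Srsf genes kept 49.8% and 53.3% of their TPM, the Hnrnp genes 74.1% and 74.6%, and the Rbm genes 72.9% and 75.2%.

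Hnrnpu (chr1:178321108-178337797, minus strand) had the highest non-coding share, 84.6% in animal 1 and 85.1% in animal 2, and 84.4% in the second quantification. A single decay transcript, Hnrnpu-206, made up 59.6% and 60.3% of the gene, at 28.2 and 27.3 TPM. In the second quantification it was again the most abundant transcript but held a lower share, 35.2 of 68.8 TPM in animal 1 and 32.3 of 67.4 TPM in animal 2. The full-length coding transcript Hnrnpu-201 of 7640 bases held only 15.4% and 14.9%, at 7.29 and 6.76 TPM. Hnrnpu-206 is 2844 bases long, and its stop codon lies in exon 14 of 17, a 71-base exon that overlaps an exon of Hnrnpu-201. In counts the non-coding share of Hnrnpu was 62.4%. By coding transcripts alone, Hnrnpu thus stood far below its gene level in both animals, whereas Hnrnpa3, with 1.32% and 1.62% non-coding, kept almost all of its own.

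Hnrnpa1 was the other hnRNP above 50%, at 52.0% and 54.8%, all of it in decay transcripts. The second quantification gave 43.7% and 44.7% and made the coding Hnrnpa1-202 its most abundant transcript, so the call was lost there. Its main decay transcript, Hnrnpa1-203 (19.0 and 16.0 TPM), ends at the same stop codon as the longest coding frame and differs by splicing after it, with 90 bases from the stop codon to the last junction. The same held for Hnrnpa1-204, for Hnrnpa2b1-209 (10.7 and 12.3 TPM) and for Hnrnpd-208 (5.27 TPM in both). In all, 11 of the 63 decay transcripts kept the stop codon of the longest frame, and they made up 45.5 of 116 and 43.4 of 119 TPM of decay transcripts in the 2 animals. Counted as coding, an alternative chosen after seeing the data, they left Hnrnpa1 with a share of 0% and moved the Hnrnp median from 34.9% to 22.6%. With that counting 8 of 42 genes reached 50% or more, against 7.62% of all protein-coding genes chosen in the same way. Hnrnpa2b1-209 had 0 TPM in the second quantification in both animals.

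Of the Srsf genes, 4 of 9 reached 50% in both animals. Srsf3 (chr17:29032628-29043373, plus strand) had 69.1% and 67.8%, and its most abundant transcript was Srsf3-209, a processed transcript of 518 bases with 38.3% and 35.4%, against 8.99% and 8.53% in the second quantification. Its coding transcript Srsf3-202 held 30.9% and 32.2%. Srsf11 had 69.3% and 65.3%, led by the retained-intron transcript Srsf11-211 (19.8% and 19.7%) beside the coding Srsf11-202 (21.6% and 23.0%). In Srsf5 (64.4% and 53.7%), the most abundant transcript was Srsf5-206, a processed transcript with 32.8% and 28.2%, and its top coding transcript Srsf5-201 had 14.95% and 17.6%. Srsf6 (chr2:162931528-162937121, plus strand) had 56.6% and 54.1%. Its share by expected counts was 43.5% and 39.3%, so that call was lost by counts. The poison exon transcript Srsf6-201 stood close to the coding Srsf6-203, at 5.68 and 7.14 TPM against 6.98 and 8.11. The lowest shares of the family were those of Srsf4 (24.7% and 21.4%) and Srsf7 (17.3% and 18.4%).

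Of the Rbm genes, 3 of 17 reached 50% in both animals. Rbm8a had 71.0% and 52.4%, nearly all in Rbm8a-204, a retained-intron fragment of 560 bases at 10.2 and 4.94 TPM, while the coding Rbm8a-201 of 2608 bases had 2.26 and 2.42. Its non-coding share by counts was only 23.9%, so the call did not hold by counts. Rbm19 had 61.7% and 55.0%, with Rbm19-205 (24.4% and 24.9%) as the main retained-intron transcript and 41.6% ± 4.69 in the coding Rbm19-201. The second quantification put its share at 37.4%. Rbm5, a tumour suppressor that regulates alternative splicing, had 51.2% and 57.4%, spread over many of its 17 non-coding transcripts, with Rbm5-219 at 10.3% and 14.4% against 38.5% and 35.3% in the coding Rbm5-214. In the second quantification its share was 49.6% and 53.3%. Rbm39, Rbm28 and Rbm25 passed 50% in 1 animal each. Rbm39 and Rbm28 had means of 50.6% ± 1.24 and 50.2% ± 2.41, and Rbm25 had 32.6% and 51.2%. Rbm28, a nucleolar protein, was led by the coding Rbm28-201 (48.1% and 51.5%), followed by the retained-intron Rbm28-203 (30.2% and 35.9%). In Rbm39 the coding Rbm39-217 (21.5% and 15.6%) stood above Rbm39-205 (9.59% and 6.36%).

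At the other end, 5 genes had hardly any non-coding RNA. Rbm42 had 0.50% and 0.85%, in Rbm42-203, against 61.0% and 63.5% in the coding Rbm42-202. Hnrnpc had 0.45% and 1.65%, with Hnrnpc-207 as its leading coding transcript (31.7% and 38.1%). Hnrnpa3 was led by Hnrnpa3-202 (50.9% and 60.3%) and Hnrnpul1 by Hnrnpul1-205 (72.3% and 66.2%), with non-coding shares of 1.32% and 1.62% and of 1.79% and 1.57%. Hnrnpul2 had 3.03% and 2.82%, all in Hnrnpul2-202, and 97.0% and 97.2% in the coding Hnrnpul2-201. As means of 2 animals these shares stayed at or below 3.20% in the second quantification.

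Several retained-intron transcripts ran through the intron that holds the stop-carrying exon. Srsf6-204 kept the whole 1283-base intron and made up 21.2% and 13.8% of the gene. Srsf3-204 kept the 2150-base intron with 11.3% and 6.42%, Srsf7-206 the 874-base intron with 11.7% and 11.3%, and Rbm3-209 a 625-base intron with 7.01% and 6.72%. Reads inside such an exon can come from either kind of transcript, so these shares are estimates of the quantification. Rbm7-203 kept the 973-base intron around the Rbm7 exon, with 4.47% and 4.6%. The retained introns of the following transcripts held no such exon. Srsf1-203 kept a 378-base intron and took 18.3% and 21.3% of Srsf1, but only 6.11% and 2.51% in the second quantification. Srsf2-203 took 21.5% and 17.7% of Srsf2, and Srsf5-212 kept an intron of 1229 bases with 17.8% and 16.5%.

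**Figure D4:**
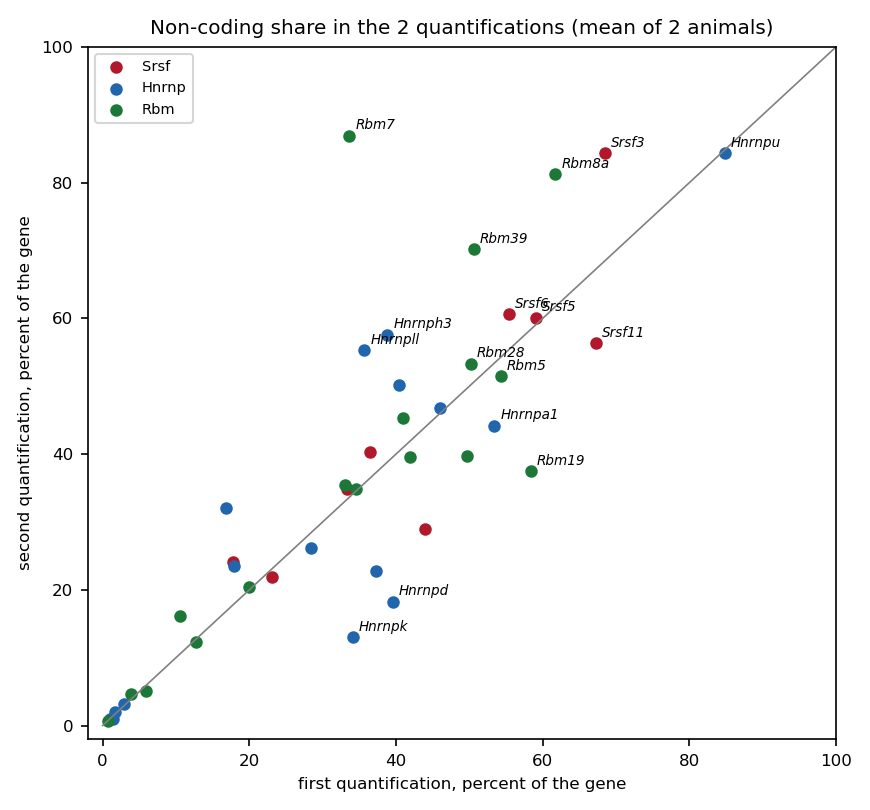
Non-coding share of the 42 genes in the first (x axis) and second (y axis) quantification, in percent of the gene's TPM, mean of 2 animals; the line marks equal shares and colours the families. Hnrnpu lies on the line near 84%, while Rbm7 (33.6% and 86.9%) lies far above it and Hnrnpk (34.1% and 13.1%) and Hnrnpd (39.6% and 18.3%) lie below.

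For single genes the estimates can be uncertain by more than the animals differ. Rbm7 was the widest case, with 33.6% in the first quantification and 86.9% in the second. Rbm8a, Rbm19, Rbm39, Hnrnph3, Hnrnpll, Hnrnpd and Hnrnpk also differed by about 20 points. Between animals the share moved most in Hnrnph3 (25.9% and 51.7%), Rbm8a and Rbm25 (32.6% and 51.2%). The share was higher in animal 1 in 22 genes and in animal 2 in 20. At gene level the quantifications were closer: after rescaling each to protein-coding TPM, 0 of the genes at 1 TPM or more differed over 2-fold.

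The animals were then compared as libraries. An exact conditional binomial test on rounded expected counts, scaled by TMM, was run on 14754 genes, with Benjamini-Hochberg adjustment over all of them. Its error is counting error only, and with a single library on each side no test over animals was possible. No condition is compared. Of the 62 genes of these families with enough counts, 0 differed over 1.5-fold at an adjusted p under 0.05, against 3.66% of all genes tested. None did so at an unadjusted p under 0.05 either, nor with DESeq2 size factors. At an adjusted p under 0.05 alone there were 13 (20.97%), against 14.8% of all genes. Among the 47 at mean TPM of 5 or more there were 11 (23.4%), against 24.0% of protein-coding genes at that level.

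Of the 13, Rbm38 was higher in animal 2, by 0.21 on the log2 scale (adjusted p = 2.8e-08), and 12 were lower, 8 of them Hnrnp genes. Over all genes tested 7.96% were higher and 6.87% lower. DESeq2 size factors, and TMM in the second quantification, also gave 1 higher and 12 lower, and spike-in counts gave 2 and 10. With scaling by total counts the split was 5 higher and 6 lower, with 1 and 4 among the Hnrnp genes, so the balance of directions depends on the scaling. The median log2 ratio of the 47 genes was -0.03 with TMM, beside 0.02 for all protein-coding genes at that level, and 0.06 beside 0.11 with total counts. Hnrnpa1 had the largest ratio at 5 TPM or more, with 1932 and 1597 expected counts, a log2 ratio of -0.46 and an adjusted p of 2.5e-19. Hnrnph3 (-0.27), Srsf11 (-0.26), Hnrnpm (-0.26) and Rbm8a (-0.26) came next, and Hnrnph3 and Rbm8a did not pass the test, with adjusted p of 0.12 and 0.066. These are ratios of counts. By TPM, which is corrected for transcript length, Rbm8a differed more, with a log2 ratio of -0.60. Upwards, Rbm38 was followed by Rbm4 (0.17), Rbm7 (0.16), Srsf1 (0.15) and Srsf4 (0.14), with adjusted p of 0.37, 0.51, 0.058 and 0.28. Below 5 TPM, Rbm12b2 (-0.57) and Rbm12 (-0.50) passed with adjusted p of 0.0044 and 0.0056. In the second quantification Rbm12b2 did not pass (-0.33, adjusted p = 0.19 by the same binomial test).

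**Figure D5:**
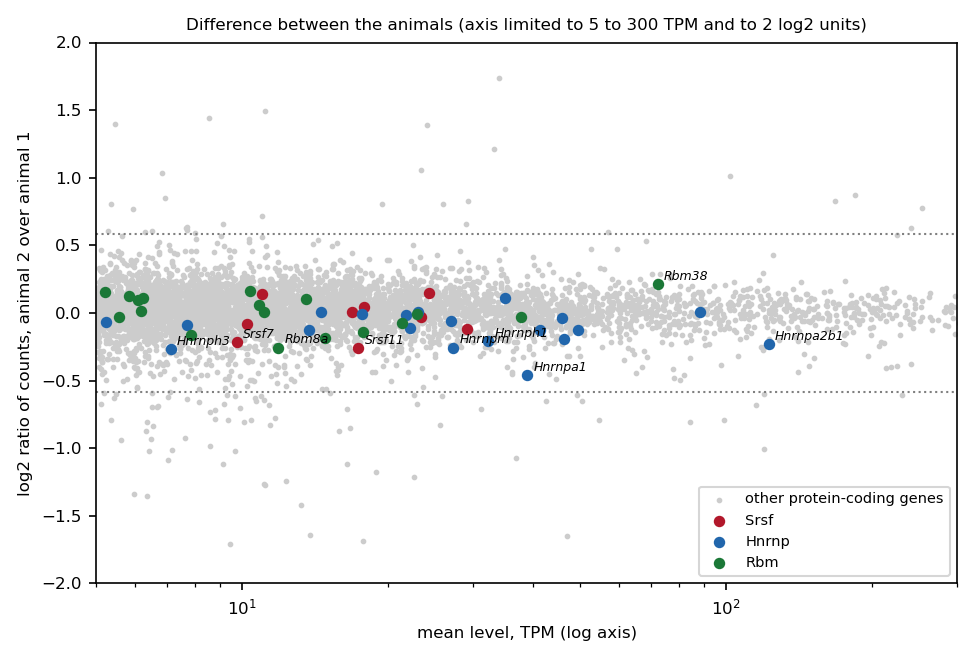
Log2 ratio of TMM-scaled expected counts, animal 2 over animal 1 (y axis), against mean TPM on a log axis for genes at 5 to 300 TPM; grey points are other protein-coding genes and dotted lines mark 1.5-fold. The coloured genes of the 3 families all lie between the dotted lines, with Hnrnpa1 lowest at -0.46 and Rbm38 highest at 0.21.

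The kinases that phosphorylate SR proteins, and the importers that carry them into the nucleus, were all detected (12 of 12). Their median level was 12.3 TPM and their median non-coding share 37.2%, or 27.7% in the second quantification. The phosphatase subunit Ppp1ca was highest at 75.9 and 80.6 TPM, followed by the kinase Dyrk1a (25.9 and 28.3) and the muscle SR kinase Srpk3 (21.03 and 23.7), and the kinase Clk2 was lowest at 5.61 and 6.39. Shares above 50% on average were found for Prpf4b (87.4% and 85.3%), for Clk1 (72.9% and 71.8%) and Clk4 (65.8% and 44.3%), which phosphorylate SR proteins in the nucleus, and for Srpk1 (55.2% and 46.2%), which had 38.6% in the second quantification. Clk1 was lower in animal 2, with 18.6 and 11.9 TPM and a log2 ratio of -0.59. It was the 1 gene of the 12 called over 1.5-fold in the same test, against 3.66% of all genes tested.

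SR-related proteins under other names were detected in 20 of 22 cases, with a median non-coding share of 33.4%. That share was 35.7% in the second quantification and 15.9% by expected counts. Srrm2, a scaffold of nuclear speckles, was highest at 60.0 and 61.6 TPM, ahead of Luc7l2 and Thrap3, and Srrm3, a neuronal gene, lowest at 0.02 and 0.03. Ppig (67.5% and 69.2%), Sfswap (57.0% and 66.7%), Tra2b (56.7% and 64.7%), Scaf11 and Srek1 had means above 50%. Tra2a was lower in animal 2 (log2 ratio -0.59) and was the 1 gene called over 1.5-fold of the 20 tested in this list, against 3.66% of all genes tested. Of the hnRNP-like proteins under other names, 21 of 23 were detected and the median share was 22.4%, or 30.8% in the second quantification. Pcbp2 was highest at 144 and 160 TPM, then Tardbp (44.2 and 44.3) and Pcbp1 (39.5 and 39.0), and the neuronal Ralyl was listed at 0. Tardbp, which encodes TDP-43 and is known to regulate its own transcript, was the 1 gene of that list above 50%, at 54.2% and 64.0%, against a mean of 44.2% in the second quantification.

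All 40 listed genes of the core spliceosome, the machinery that carries out splicing, were detected, with a median level of 10.6 TPM and a median non-coding share of 9.88%, beside 36.1% in the SR, hnRNP and RBM genes. Prpf19 was highest (59.7 and 67.1 TPM), then Snrpb and Snrnp70, and Sf3b5 was lowest at 1.64 and 1.91. Snrpg (83.9% and 77.7%), Snrpb2 (70.25% and 75.9%), Sf3b6 (59.8% and 54.7%) and Snrnp70 (50.3% and 53.6%) were its 4 genes above 50%, but in the second quantification only Snrpg stayed above it (83.7%), with 1.39% for Snrpb2, 6.98% for Sf3b6 and 36.9% for Snrnp70. The factors of the exon junction complex and of nonsense-mediated decay were detected in 14 of 14 cases, at a median of 6.10 TPM and a share of 13.6%, or 21.3% in the second quantification. Smg5 (11.3 and 17.0 TPM), Eif4a3 (12.5 and 14.4) and the helicase Upf1 (10.6 and 11.3) were highest and Magohb lowest (1.39 and 1.51). The 13 genes of the m6A pathway were all detected, from Alkbh5 (36.4 and 39.0 TPM), Fto and Ythdf3 down to Ythdc2 (2.15 and 2.02), with a median share of 17.7%. That share was 33.7% in the second quantification and 2.48% by expected counts, so its place among the lists depends on the measure. The kinase and hnRNP-like lists also changed order between the quantifications. These medians are descriptions of lists that differ in size and annotation, and no difference between lists was tested.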

How the data were processed

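Gene and transcript tables of 2 total RNA-seq libraries were used. Expected counts, TPM and the percent of each gene taken by each transcript (IsoPct) were computed by the authors and deposited in tables with the columns RSEM writes, per the file headers. The second quantification holds estimated counts and TPM, deposited with kallisto's column names per the file headers. The files name mm10 and GENCODE M21. The aligner, the tool versions and whether reads were counted by strand were not given in the sources used here. Overlapping and antisense genes, pseudogenes and near-identical copies are uncertain. These F1 animals carry CAST/EiJ alleles, while mm10 is a C57BL/6J assembly.

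Transcript types and stop codons came from the M21 annotation and transcript sequences. Expected counts were rounded, scaled by TMM (edgeR 4.0.16, R 4.3.3) and compared by an exact conditional binomial test (scipy 1.17.1) at a summed count of 20 or more, with a prior count of 0.5 for log2 ratios. The test was checked on simulated data. A count of 0 allows up to 3 counts; this and the test cover counting error only. DESeq2 1.42.0 size factors, total counts, spike-in counts, other thresholds, single animals and the second quantification were alternatives.

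The genes, the 6 pathway lists and 13 marker lists were chosen with earlier results of these data known. Levels were named for the 8 highest and the lowest detected gene of each family, for genes under 1 TPM and for fixed paralog groups. Isoforms were named for the 10 highest and 5 lowest non-coding shares, ratios for the 5 largest each way, and list genes for the 3 highest, the lowest and shares over 50%. Protein sequence features were not analysed here.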

Additional observations from a re-analysis of the deposited data

How the results depend on the processing

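Levels depended on the quantification and on the denominator. The order Hnrnp above Srsf above Rbm held with the posterior mean TPM, in the second quantification and in each animal alone. Rescaling to the protein-coding total multiplies all genes of a library by the same factor, so it could not change that order. The second quantification gave medians of 41.1, 22.2 and 6.01 TPM for Hnrnp, Srsf and Rbm. Rescaling to the protein-coding total gave 68.4, 40.9 and 11.2, and doing so in the second quantification 65.5, 35.3 and 9.57. The posterior mean TPM gave 16.7 for Srsf. Detection ranged from 46 genes (at 5 TPM) to 60. The number of genes with a non-coding share at the threshold was 24 at 30%, 1 at 70% and 4 by expected counts. The same settings gave 19.4%, 3.22% and 3.98% of all protein-coding genes. With animal 1 alone the number was 10 (9.73% of all), and with animal 2 alone 12 (9.23% of all). Between the animals, 0 genes were called under 8 of the 9 settings. Among the 8, a threshold of 2-fold could only give 0 once 1.5-fold had. The remaining setting, adjusted p alone, has no fold threshold and gave 13. Of 60 single-gene shares recomputed under an alternative, 22 moved by more than 1 SD of the 2 animals, an SD that rests on 2 values. All 22 came from the second quantification or from expected counts. The rest of the 60 include shares with 1 animal left out, which cannot move a mean of 2 animals by 1 SD. The 22 of 60 therefore understates how far the shares depend on the measure. No paired analysis was possible because the series has 1 group.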
